A study of Mus musculus with 9 samples.

Results

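The glucose transporter genes Slc2a1 and Slc2a3 were followed through whole mouse embryos at 9.5 days post coitum (dpc), profiled on 9 Affymetrix expression arrays. They were taken as every probe set annotated to exactly 1 of these symbols: 3 for Slc2a1 and 4 for Slc2a3, so 7 of the 22626 probe sets tested and 2 of 12393 named genes. Per the labels, 2 arrays came from Notch1tm1Con/tm1Con embryos (homozygous, called Notch1 null), 1 from a Notch1tm1Con/+ embryo sample (Notch1 het), 2 from +/+ embryos (wild type, with no locus named), 2 from Dll3neo/+ embryos (Dll3 het) and 2 from Dll3neo/neo embryos (Dll3 null). The strain C57BL/6J is named for 1 array of the Notch1 null group only. The labels name no agent or treatment. They number the embryo samples within a genotype but do not say outright whether an array holds 1 embryo or a pool, or whether replicates came from separate litters, so every error and p-value covers array-to-array spread alone, part of which can be technical.

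Cells take up glucose down its gradient through facilitative carriers of the SLC2 family. Slc2a1 encodes GLUT1, the broadly expressed carrier that also serves red cells and the endothelium of barrier tissues, and Slc2a3 encodes GLUT3, a high-affinity carrier best known from neurons and from trophoblast. Both genes are known targets of hypoxia-inducible factors, which bind the core motifs ACGTG and GCGTG in DNA.

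The region before the Slc2a1 start site is shown because these motifs can be read in it directly. It covers chr4:119108495-119108744 on the plus strand of GRCm38.p6, is 250 bases long and comes from RefSeq, with letters matching ACGTG or GCGTG on either strand in capitals.
Slc2a1: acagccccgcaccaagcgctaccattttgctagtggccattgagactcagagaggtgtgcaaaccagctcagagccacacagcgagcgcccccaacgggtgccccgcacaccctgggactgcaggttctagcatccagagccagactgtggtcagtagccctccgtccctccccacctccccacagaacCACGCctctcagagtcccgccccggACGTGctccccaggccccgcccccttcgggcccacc
It holds 2 matches that do not overlap each other. GCGTG lies on the minus strand, read as CACGC in the sequence printed, and starts 61 bases before the start site, while ACGTG lies on the plus strand and starts 36 bases before it. Of 32851 RefSeq windows of this length, 38.6% hold at least 1 of these motifs and 16.7% hold at least 2, where CACGTG counts as 2 matches because ACGTG overlaps its own reverse complement there. A match is a description of the letters and not a measured site. The table matched 1 of the 2 genes; Slc2a3 was not matched.

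The deposited values are ratios. They read as each probe set divided by a number of its own, a step that no source used here names, and for all 7 probe sets of the glucose transporters the median over the 9 arrays was exactly 1 and 1 array sits at 1. Ratios between arrays therefore remain, but levels of Slc2a1 cannot be set against levels of Slc2a3, and no value says whether a transcript was detected. For the same reason the tissue in the labels could be checked only for differences between arrays and not for presence. The number of arrays, 1 or 2 per genotype, limits the precision of every value.

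The differences between Notch1 null, Dll3 null and wild-type arrays were known when these genes were chosen. They are given as a description, with standard errors (SE) from a linear model fitted across all probe sets, and without a test.

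Slc2a3, probe set by probe set, gave the widest span. At 1421924_at the ratio in the wild-type arrays was 0.537 and 0.467, the Notch1 het array 0.975 and the Notch1 null arrays 2.145 and 2.196, with 1.134 and 0.918 in Dll3 het and 1.000 and 1.296 in Dll3 null. At 1427770_a_at the wild-type arrays read 0.534 and 0.461, the Notch1 het array 0.735 and the Notch1 null arrays 2.239 and 1.962, with 1.108 and 0.987 in Dll3 het and 1.000 and 1.414 in Dll3 null. These 2 probe sets placed wild type lowest and Notch1 null highest, with Notch1 het and all Dll3 arrays in between and no array of either extreme group overlapping another group.

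The other Slc2a3 probe sets, 1437052_s_at and 1455898_x_at, are annotated to a single shared sequence. At 1437052_s_at the wild-type arrays read 0.845 and 0.887, the Notch1 het array 1.392 and the Notch1 null arrays 1.762 and 1.858, with 1.000 and 0.900 in Dll3 het and 0.941 and 1.114 in Dll3 null. At 1455898_x_at the wild-type arrays read 0.814 and 0.877, the Notch1 het array 1.285 and the Notch1 null arrays 2.182 and 2.262, with 1.000 and 0.955 in Dll3 het and 0.951 and 1.083 in Dll3 null. Wild type was again lowest and Notch1 null highest, but here the Notch1 het array stood above all 4 Dll3 arrays and wild type lay only just below them. In the array maker's naming, probes of an s set can match transcripts of more than 1 gene and some probes of an x set can match unrelated sequence, so these values may hold signal of other transcripts.

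Slc2a1 was also highest in Notch1 null, over a narrower span. At 1426599_a_at the wild-type arrays read 0.844 and 0.888, the Notch1 het array 1.113 and the Notch1 null arrays 1.665 and 1.576, with 0.900 and 1.000 in Dll3 het and 0.930 and 1.017 in Dll3 null. At 1426600_at the wild-type arrays read 0.763 and 0.784, the Notch1 het array 1.319 and the Notch1 null arrays 1.372 and 1.598, with 1.000 and 0.942 in Dll3 het and 1.006 and 0.959 in Dll3 null. In both, all 4 Dll3 arrays lay close together between wild type and Notch1 het. At 1434773_a_at the wild-type arrays read 0.804 and 0.908, the Notch1 het array 0.936 and the Notch1 null arrays 1.360 and 1.361, with 1.013 and 1.000 in Dll3 het and 0.888 and 1.164 in Dll3 null. This last probe set differed in that Notch1 het lay near wild type and 1 Dll3 null array fell within the wild-type range. Both Notch1 null arrays stood above all 7 other arrays at 7 of 7 probe sets, where 7.08% of all probe sets do so. Both wild-type arrays stood below all others at 6 of 7, where 5.69% of all do so. These arrays are those the genes were chosen on, so nothing is read from either count.

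**Figure D1:**
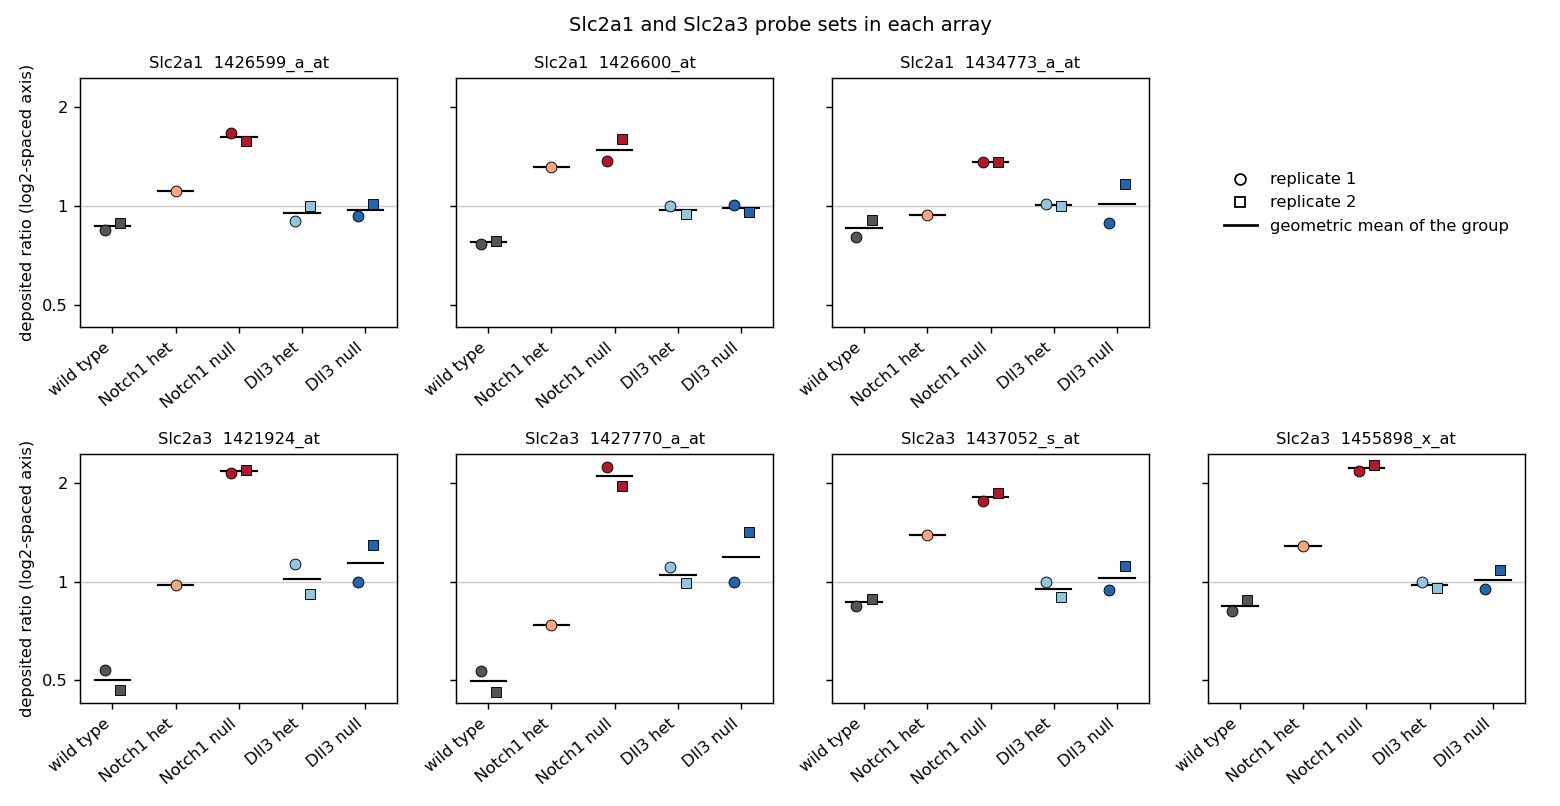
Deposited ratio (log2-spaced axis) of each Slc2a1 and Slc2a3 probe set by genotype; points are single arrays (circle replicate 1, square replicate 2) and bars are geometric means. Both Notch1 null arrays are highest in all 7 panels, and both wild-type arrays are lowest in 6.

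Averaged over its 4 probe sets, Slc2a3 stood at a ratio of 0.666 and 0.640 in the wild-type arrays, 0.939 and 1.06 in Dll3 het, 1.06 in Notch1 het, 0.973 and 1.22 in Dll3 null, and 2.07 and 2.06 in Notch1 null. Wild type was separate at the bottom and Notch1 null at the top. Notch1 het lay just above the Dll3 het arrays and within the Dll3 null arrays, so the order in the middle is not settled by these values. Averaged over its 3 probe sets, Slc2a1 stood at a ratio of 0.803 and 0.858 in the wild-type arrays, 0.970 and 0.980 in Dll3 het, 0.940 and 1.04 in Dll3 null, 1.11 in Notch1 het, and 1.46 and 1.51 in Notch1 null. Dll3 het and Dll3 null overlapped, and the other neighbours in this order did not, though Notch1 het is a single array.

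Loss of Notch1 was set against wild type to ask how far each transporter differs with receptor genotype. Slc2a3 was 3.17-fold higher in Notch1 null on average over its probe sets (log2 1.66 ± 0.12 SE, 2 arrays against 2) and Slc2a1 1.79-fold higher (log2 0.84 ± 0.09 SE). Among Slc2a3 probe sets the difference ran from log2 1.06 ± 0.12 at 1437052_s_at through 1.39 ± 0.11 at 1455898_x_at to 2.08 ± 0.17 at 1427770_a_at and 2.12 ± 0.15 at 1421924_at. Among Slc2a1 probe sets it ran from 0.67 ± 0.14 at 1434773_a_at to 0.90 ± 0.11 at 1426599_a_at and 0.94 ± 0.11 at 1426600_at. The estimates of all 4 Slc2a3 probe sets were above those of Slc2a1, though the SE range of 1437052_s_at overlaps those of 1426600_at and 1426599_a_at. The median over the 22626 probe sets was log2 -0.03. With the members themselves counted, 12 probe sets had a difference at least as high as the top Slc2a3 probe set. For the top Slc2a1 probe set 165 did. All 7 passed an adjusted p (limma, Benjamini-Hochberg) under 0.05 in the higher direction, as 3.46% of all probe sets did, and all 7 had arrays that did not overlap, as 21.2% did. The genes were chosen on this contrast, so nothing is read from these counts. The count over all probe sets in either direction, 2139 (9.45%), was 879 and 306 without Notch1_null replicates 1 and 2, and 610 and 398 without wild_type replicates 1 and 2, while the averaged differences moved only between log2 1.63 and 1.69 for Slc2a3 and between 0.79 and 0.89 for Slc2a1. Quantile normalization lowered these averaged differences to log2 1.37 for Slc2a3 and 0.74 for Slc2a1. In whole embryos, more cells of a type and more RNA per cell cannot be told apart.

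The single Notch1 het array lay between wild type and Notch1 null. Against wild type the averaged difference was log2 0.70 ± 0.15 SE for Slc2a3 (1.63-fold) and 0.42 ± 0.12 for Slc2a1 (1.34-fold), and Notch1 null exceeded Notch1 het by 0.96 ± 0.15 and 0.42 ± 0.12. These errors assume that this array varies like those of the other groups. By limma 3 of 4 Slc2a3 and 1 of 3 Slc2a1 probe sets passed in the higher direction against wild type, as 0.99% of all probe sets did; this contrast shares the wild-type arrays with those the genes were chosen on, so nothing is read from the count. The probe sets did not agree on how near this array lay to either end. At 1426600_at of Slc2a1 it was 0.77 ± 0.14 above wild type and 0.17 ± 0.14 below Notch1 null, while at 1434773_a_at of the same gene it was 0.13 ± 0.17 above wild type and 0.54 ± 0.17 below Notch1 null.

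Dll3 genotypes were set against the same wild-type arrays to ask whether loss of the ligand goes with the same transporters. For Slc2a3 the averaged difference was log2 0.74 ± 0.12 SE in Dll3 null (1.67-fold) and 0.61 ± 0.12 in Dll3 het (1.53-fold). For Slc2a1 it was 0.25 ± 0.09 in Dll3 null (1.19-fold) and 0.23 ± 0.09 in Dll3 het (1.17-fold). Heterozygous and homozygous Dll3 embryos thus lay at like distances from wild type. These comparisons share their wild-type arrays with each other and with those of Notch1. At 1421924_at and 1427770_a_at Dll3 null was 1.18 ± 0.15 and 1.26 ± 0.17 above wild type. Counting 1427770_a_at itself, 3 of all 22626 probe sets had a difference at least as high. At 1437052_s_at and 1455898_x_at of the same gene Dll3 null was 0.24 ± 0.12 and 0.26 ± 0.11 above wild type, close to the 3 Slc2a1 probe sets (0.17 ± 0.11, 0.25 ± 0.14 and 0.34 ± 0.11). By limma the former 2 of 4 Slc2a3 probe sets and 0 of 3 of Slc2a1 passed in the higher direction, as 0.0177% of all probe sets did. Slc2a3 was chosen on this contrast, so nothing is read from this count or from the rank of 1427770_a_at. Over all 22626, 20 (0.0884%) passed in either direction and 2307 had an unadjusted p under 0.05. The count over all probe sets was 1 and 0 without wild_type replicates 1 and 2, 2 without either Notch1_null array, 0 without either Dll3_het array, and 7 and 49 without Dll3_null replicates 1 and 2.

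In Dll3 het the same 2 Slc2a3 probe sets stood 1.03 ± 0.15 and 1.08 ± 0.17 above wild type and passed, as 0.186% of all probe sets did (a count read no further, since the wild-type arrays are shared), while 1437052_s_at and 1455898_x_at stood 0.13 ± 0.12 and 0.21 ± 0.11 above it.

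Notch1 null exceeded Dll3 null by 1.90-fold for Slc2a3 (log2 0.93 ± 0.12 SE) and by 1.50-fold for Slc2a1 (0.58 ± 0.09). All 4 Slc2a3 and 2 of 3 Slc2a1 probe sets passed in the higher direction by limma, as 2.46% of all probe sets did, and the probe set that did not pass was 1434773_a_at. Both groups are among those the genes were chosen on, so this too is a description.

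**Figure D2:**
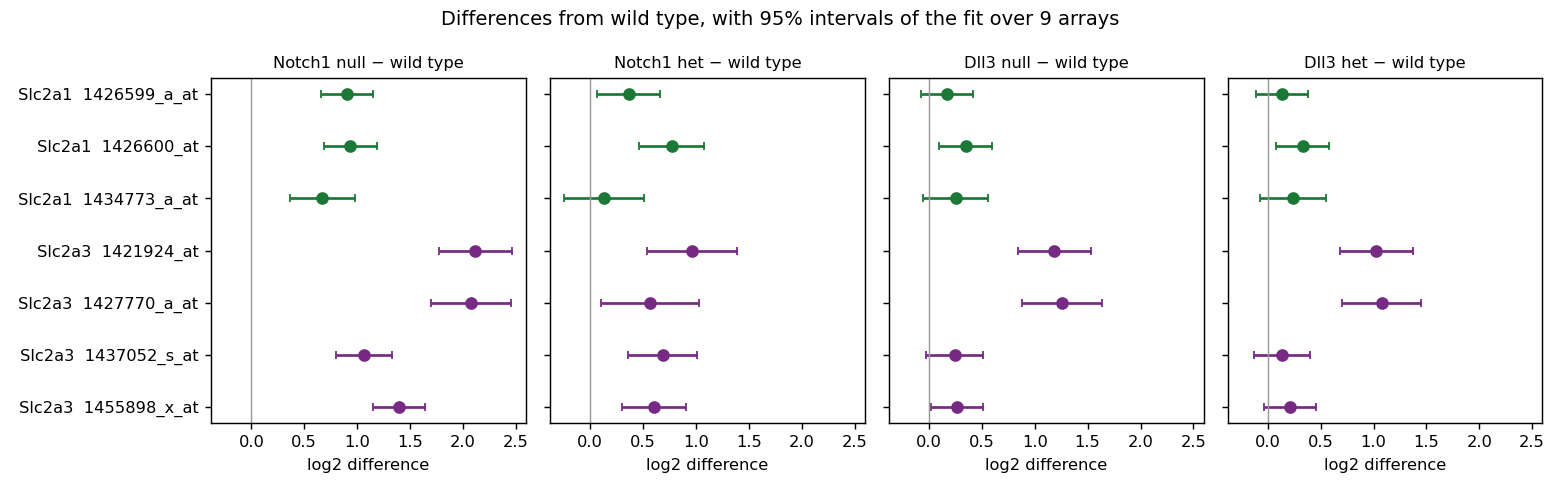
Log2 difference from wild type (horizontal axis) of each probe set in each mutant genotype, with 95% intervals of the fit over 9 arrays; Slc2a1 is green and Slc2a3 purple. In the Dll3 panels 1421924_at and 1427770_a_at lie above 1 while the other 5 probe sets lie at or below 0.34.

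Dll3 null against Dll3 het was not among the comparisons that chose these genes, although it shares the Dll3 null arrays with 1 of them, so it was tested. No difference was detected. Slc2a1 differed by 1.02-fold (log2 0.02 ± 0.09 SE, limma adjusted p = 0.990), with a 95% interval from 0.877-fold to 1.18-fold. Slc2a3 differed by 1.09-fold (log2 0.13 ± 0.12 SE, limma adjusted p = 0.968), with a 95% interval from 0.906-fold to 1.32-fold. The Dll3 het and null arrays overlapped at all 7 probe sets, so Dll3 null lay wholly above Dll3 het at none of them. It did so at 21% of all probe sets, and the share wholly below is not given here. By limma 0 of all probe sets passed in this comparison, against 1201 at an unadjusted p under 0.05; without Dll3_null replicate 2 the count was 17. Both transporter averages were higher in that replicate than in the other Dll3 null array, though 1426600_at of Slc2a1 was lower (0.959 against 1.006). Without that replicate the averaged differences were log2 -0.053 for Slc2a1 and -0.036 for Slc2a3.

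The 2 kinds of Slc2a3 probe set did not shift together from array to array. Since each probe set has a divisor of its own, only the shift of their difference between arrays can be read, not its size or sign in 1 array. Within each array, the mean log2 ratio of 1421924_at and 1427770_a_at minus that of 1437052_s_at and 1455898_x_at was -0.63 and -0.93 in the wild-type arrays and -0.66 in Notch1 het. It was 0.16 and 0.02 in Notch1 null, 0.16 and 0.04 in Dll3 het, and 0.08 and 0.30 in Dll3 null. The 3 wild-type and Notch1 het arrays lay between -0.93 and -0.63 and the 6 others between 0.02 and 0.30, with no overlap. Folds between these sets of arrays therefore depended on the probe sets read. Over wild type, 1421924_at and 1427770_a_at gave 4.28-fold and the other probe sets 2.34-fold in Notch1 null, 2.33-fold and 1.19-fold in Dll3 null, and 2.07-fold and 1.13-fold in Dll3 het. Notch1 null over Notch1 het gave 2.52-fold and 1.50-fold. Folds within either set of arrays lay closer, at 1.70-fold and 1.56-fold for Notch1 het over wild type and 1.83-fold and 1.97-fold for Notch1 null over Dll3 null. The difference between the probe sets was not tested.

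The transporters were then set against each other within arrays. The averaged log2 ratio of Slc2a3 minus that of Slc2a1 was -0.27 and -0.42 in the wild-type arrays, -0.06 in Notch1 het, 0.51 and 0.45 in Notch1 null, 0.13 and -0.06 in Dll3 het, and 0.05 and 0.23 in Dll3 null. The wild-type arrays lay below all others and the Notch1 null arrays above them, with the other 5 arrays in between. From wild type to Notch1 null Slc2a3 gained 1.77-fold on Slc2a1, and from wild type to Dll3 null 1.40-fold. At 1437052_s_at and 1455898_x_at Dll3 null lay as near to wild type as in Slc2a1, so the latter gain rests on 1421924_at and 1427770_a_at.

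**Figure D3:**
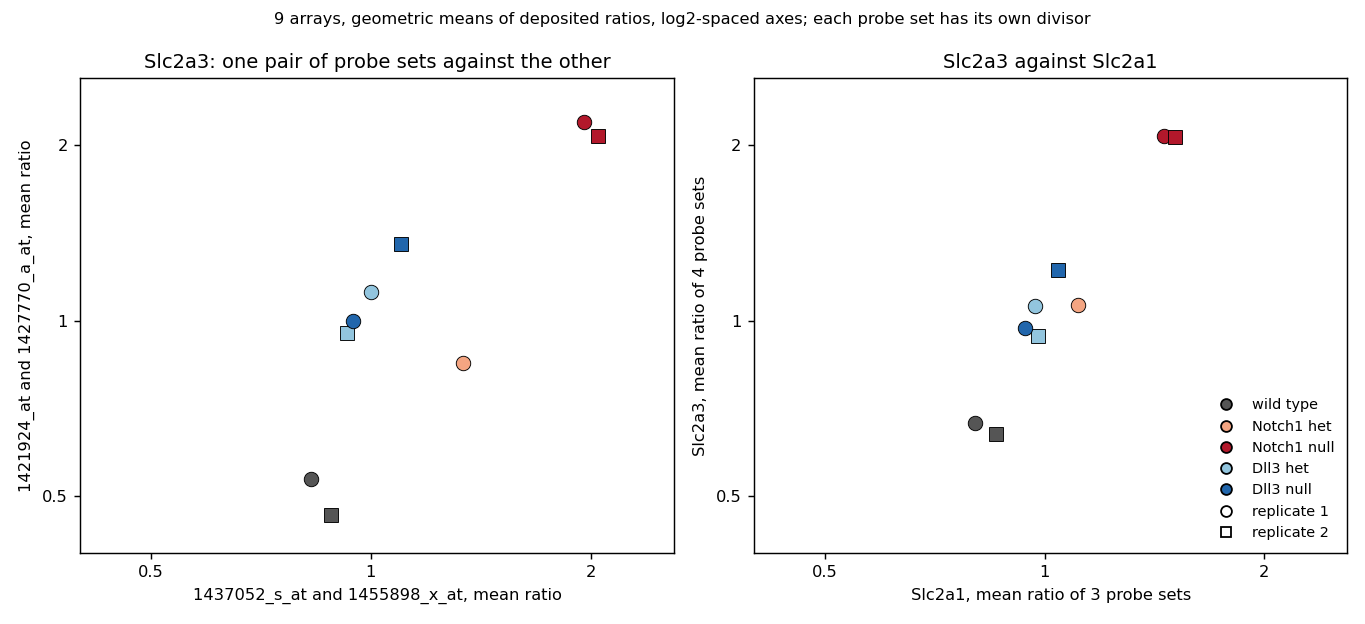
Left, mean ratio of 1421924_at and 1427770_a_at against that of 1437052_s_at and 1455898_x_at of Slc2a3; right, Slc2a3 against Slc2a1; each point is an array and both axes are log2-spaced. On the left the wild-type and Notch1 het arrays are shifted downward relative to the 6 others, and on the right Notch1 null is highest and wild type lowest on both axes; the position of 1 on each axis is set by the divisors.

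The genes whose pattern was most like each transporter were ranked by Pearson's r of averaged log2 ratios over the 9 arrays, among 482 genes (481 for Slc2a3) whose highest and lowest array differ by at least 1 on the log2 scale. These values are descriptive, since the arrays share genotypes. For Slc2a1 the closest were Lpp, encoding a focal adhesion protein (r = 0.974), Sfmbt2, a Polycomb group gene (0.972), Slc2a3 itself (0.970), Atr, a kinase of the DNA damage checkpoint (0.968), and Kdm7a, a histone demethylase gene (0.966). The other transporter thus came at rank 3 for Slc2a1. For Slc2a3 the closest were Atr (0.974), Prickle1, of planar cell polarity (0.952), Pfkfb3, whose product makes the activator of phosphofructokinase (0.950), Stc2, encoding the secreted glycoprotein stanniocalcin 2 (0.950), and Fam169a (0.936). Slc2a1 itself spans log2 0.91 and was therefore not ranked there. All genes named here were highest in both Notch1 null arrays. Ranking by likeness to genes chosen with that difference known favours such genes, so nothing is read from this or from rank 3.

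**Figure D4:**
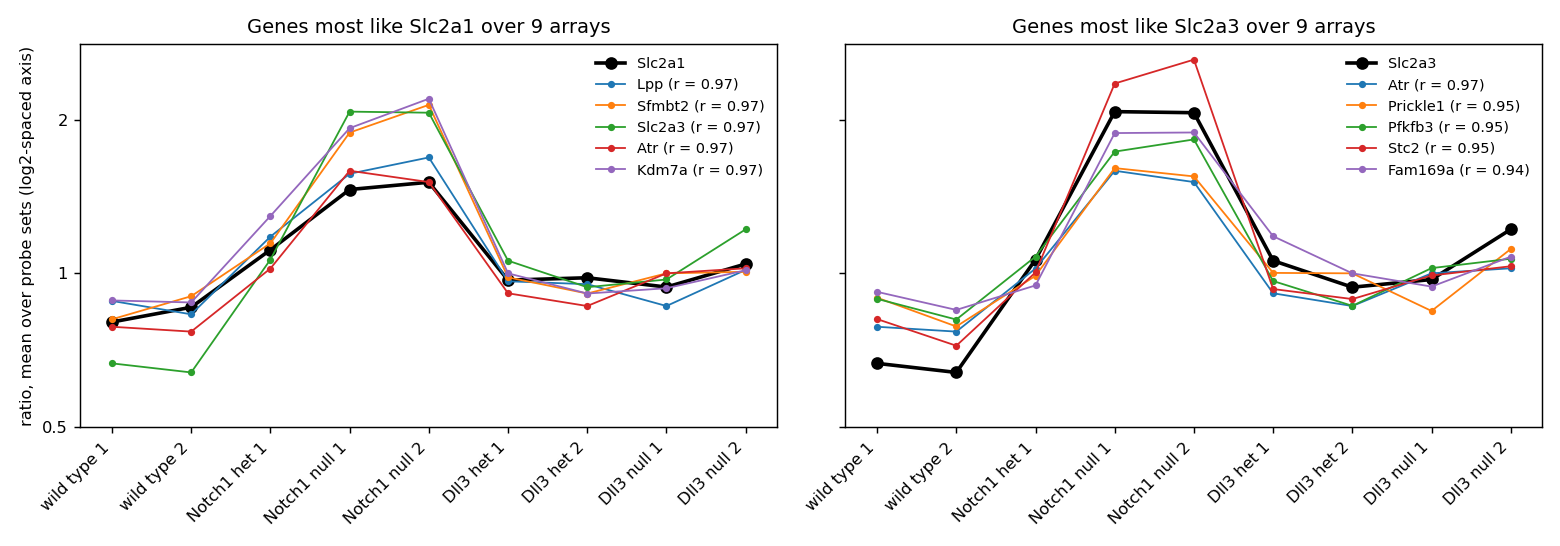
Ratio averaged over probe sets (log2-spaced axis) of Slc2a1 and Slc2a3 in black and of the 5 genes most like each, by array, with Pearson's r over 9 arrays. All lines peak in both Notch1 null arrays, where Slc2a3 stands at 2.07 and 2.06.

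Other genes of glucose uptake were taken from 5 lists covering 53 genes, of which 41 were measured. These lists, and that of glycolysis below, were chosen with earlier results of these data known. Their counts and adjusted p-values are therefore a description, and nothing is read from them about the transporters. In Notch1 null against wild type 6 of the 41 rose, 1 fell and 34 did not pass (limma, adjusted over all 12393 genes), with a median log2 difference of 0.08 against -0.03 over all genes; 3.76% of all genes rose and 8.35% fell. In the lists, counts were lower without Notch1_null replicate 2 (4 genes) and without either of wild_type replicates 1 and 2 (2 genes each). The 2 genes that passed without either wild-type array were higher.

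No other measured sugar carrier passed. Of 15 further members listed from the SLC2 and sodium-coupled SLC5 families, 10 were measured. By limma 0 of these 10 passed, and an unadjusted p under 0.05 was reached by 3. The lowest p belonged to Slc2a8, encoding the intracellular carrier GLUT8 (log2 0.28 ± 0.10 SE, adjusted p = 0.0916), and Slc2a5, encoding the fructose carrier GLUT5 (0.28 ± 0.10, adjusted p = 0.113). Slc2a4, encoding the insulin-responsive carrier GLUT4, stood at 0.06 ± 0.09. The median log2 difference of these 10 gene averages was 0.01, beside averaged differences of 1.66 for Slc2a3 and 0.84 for Slc2a1. Slc2a1 and Slc2a3 were chosen with this contrast known, so nothing is read from that gap.

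Genes acting on glucose just inside the cell rose in part, in a contrast where 3.76% of all genes rose and 8.35% fell. Of 6 measured, 2 rose: Hk2, the hexokinase that traps glucose as its phosphate, was 2.36-fold higher (log2 1.24 ± 0.11 SE, limma adjusted p = 0.000516), and Slc37a4, which carries glucose 6-phosphate into the endoplasmic reticulum, 1.50-fold higher (limma adjusted p = 0.00894). The widely expressed hexokinase gene Hk1 stood at log2 0.40 ± 0.19 and did not pass. Of 8 genes of lactate handling 2 rose and 1 fell. Slc16a3, encoding the lactate exporter MCT4, rose 1.74-fold (adjusted p = 0.0101), and Bsg, encoding its chaperone basigin, 1.48-fold (adjusted p = 0.0462). Ldhb, the lactate dehydrogenase subunit of oxidative tissues, was 2.02-fold lower (log2 -1.02 ± 0.21 SE, adjusted p = 0.0153).

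Hypoxia-inducible factors are controlled mainly through protein stability, by the prolyl hydroxylases that the Egln genes encode. Of 10 regulators 2 rose, where 3.76% of all genes did. Egln3 rose by 3.12-fold (log2 1.64 ± 0.13 SE, limma adjusted p = 0.000346) and Egln1 by 1.74-fold (limma adjusted p = 0.0107). Both are themselves known targets of these factors. Hif1a stood at log2 0.01 ± 0.12 and Epas1 at 0.21 ± 0.15, and neither passed. Of 7 genes that act on transporters at the membrane 0 passed by limma, and an unadjusted p under 0.05 was reached by 2; Txnip, encoding an arrestin that removes GLUT1 from the surface, stood at 0.08 ± 0.18. The lowest p were those of Gipc1, whose product binds the tail of GLUT1 (log2 -0.45 ± 0.15, adjusted p = 0.0828), and Arrdc4, a relative of Txnip (-0.30 ± 0.12, adjusted p = 0.141). Without Notch1_null replicate 2 Gipc1 passed (limma adjusted p = 0.0414).

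Further down the pathway 7 of 13 glycolysis genes rose and 0 fell, where 3.76% of all genes rose and 8.35% fell. Only the genes named here were rerun under the alternatives, so this count was not. Pdk1, whose product keeps pyruvate out of the mitochondrion, was 2.89-fold higher (log2 1.53 ± 0.11 SE, limma adjusted p = 0.000208), the phosphofructokinase genes Pfkp and Pfkl were 3.89-fold and 1.59-fold higher (limma adjusted p = 0.000526 and 0.00486), and Pfkfb3 was 2.09-fold higher (limma adjusted p = 0.000526). The calls of Hk2, Egln3, Pdk1, Pfkfb3, Pfkp and Pfkl held in all 17 alternatives run. Those of Slc37a4, Slc16a3, Bsg and Egln1 ended without Notch1_null replicate 2 (adjusted p = 0.0689, 0.0686, 0.303 and 0.0509) and without either wild-type array, and that of Ldhb ended without Notch1_null replicate 1 (0.0963), without either wild-type array or after quantile normalization (0.0532). The call of Bsg ended in 9 of 17 alternatives. Against wild type, 0 of the 41 uptake genes and 0 of the 13 glycolysis genes passed by limma in Dll3 null, where 0 of all 12393 genes rose and 1 (0.00807%) fell; 5 and 1 of them, respectively, had an unadjusted p under 0.05.

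**Figure D5:**
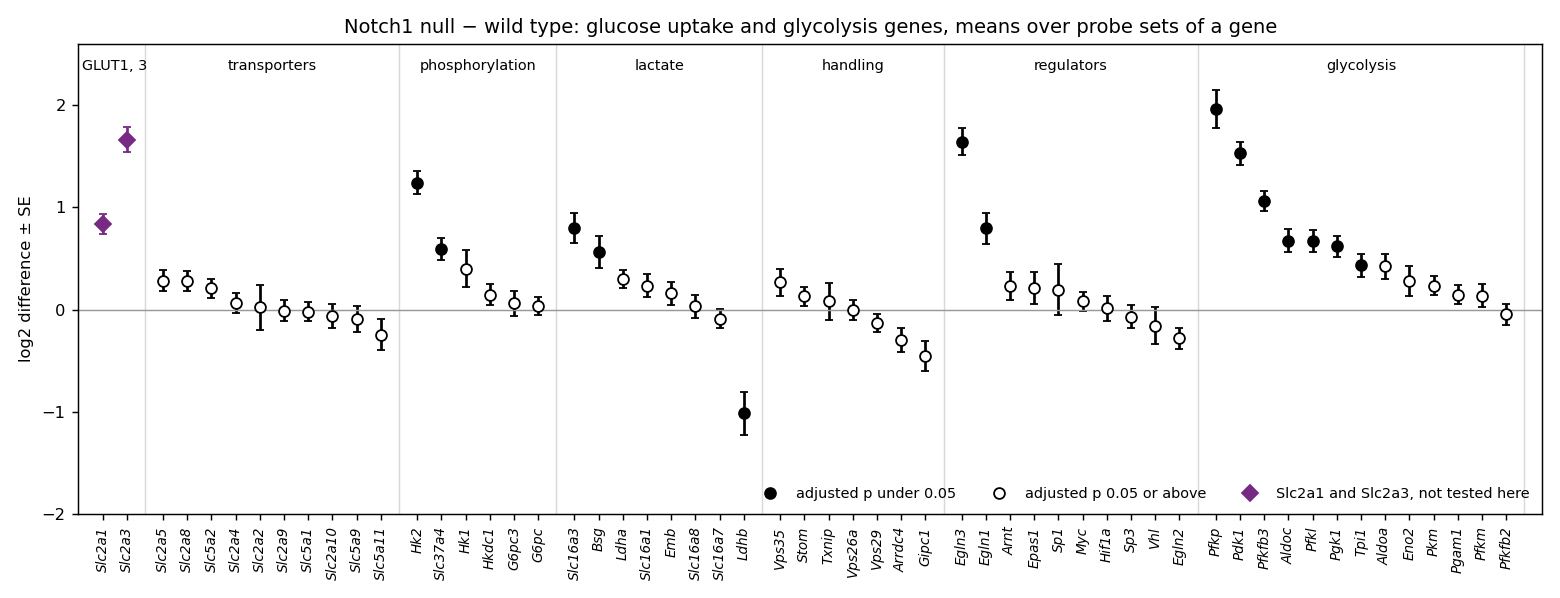
Log2 difference between Notch1 null and wild type (vertical axis, ± SE) of Slc2a1 and Slc2a3 (diamonds) and of the 41 other uptake genes and 13 glycolysis genes by list; filled circles passed an adjusted p under 0.05. None of the 10 other carriers measured passed, while Hk2, Egln3, Pdk1, Pfkfb3 and Pfkp lie above 1.

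Some measures that are not about glucose moved with the same arrays. The poly-A control dap, added to RNA before labelling, had a mean ratio of 5.26 and 2.62 in Notch1 null, 6.61 and 9.20 in wild type, 1.00 in Notch1 het and 0.360 to 0.403 in the 4 Dll3 arrays, so wild type did not overlap with any other genotype, and preparation and genotype cannot be told apart in any comparison with wild type above. Notch1 null did not overlap with Notch1 het or the Dll3 arrays in dap either. Preparation and genotype thus cannot be told apart in Notch1 null against Notch1 het or Dll3 null. The part of preparation in the differences was not tested. Dll3 null against Dll3 het lies within the arrays of 0.360 to 0.403. Xist and Eif2s3y gave a male pattern in both wild-type arrays and a female pattern in the Notch1 het array, so sex and genotype cannot be told apart between those groups. In Notch1 null, Dll3 het and Dll3 null, replicate 1 had a female and replicate 2 a male pattern. The Slc2a3 average in these replicates was 2.07 and 2.06 in Notch1 null, 1.06 and 0.939 in Dll3 het, and 0.973 and 1.22 in Dll3 null.

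Marker genes of tissues that could carry these transporters were read in the same arrays. By limma 4 of 7 neural tube markers fell and 0 rose in Notch1 null, with a mean log2 ratio of -0.66 in both arrays against 0.19 and 0.34 in wild type, and of 6 somite markers 3 fell (-0.54 and -0.39 against -0.01 and -0.02). Of 8 endothelial markers 2 rose (0.06 and 0.34 against -0.06 and -0.03) and of 6 heart muscle markers 1 rose (0.15 and 0.25 against -0.11 and -0.12). Over all genes, 8.35% fell and 3.76% rose in this contrast. None of 8 primitive red cell, 8 yolk sac endoderm or 4 trophoblast markers passed. Red cell markers stood at -0.14 and 0.04 in Notch1 null against -0.01 and 0.00 in wild type, trophoblast markers at -0.36 and -0.38 against -0.47 and -0.45. Yolk sac markers differed widely between replicates, at 0.49 and -0.70 in Notch1 null and -0.35 and 0.80 in wild type. The single Notch1 het array stood at -0.41 for neural tube markers, below the wild-type and Dll3 arrays, and at 0.06 for somite markers. Dll3_null replicate 2, with the higher Slc2a3 ratio of that group, had the lowest red cell mean of all 9 arrays, -0.56. The part of these tissues in the transporter values was not tested, and since levels were divided out no marker can be called absent.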

How the data were processed

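RNA of whole embryos was hybridised to 9 Affymetrix arrays. The submitters' processing notes name RMA, and the authors deposited 1 linear ratio per probe set and array. No source used here names the step that made ratios of expression values: 87.5% of all 22690 deposited rows, controls included, have a median over arrays of exactly 1. Control rows (64) were left out. Gene symbols came from the platform annotation, with 20380 probe sets naming 1 gene, 691 several and 1555 none.

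Ratios were taken to log2 with no pseudocount and fitted with limma 3.58.1 in R 4.3.3, with 1 mean per genotype over all 9 arrays, empirical Bayes errors and Benjamini-Hochberg adjustment over all probe sets. A call is an adjusted p under 0.05. Gene values average the log2 ratios of a gene's probe sets and were fitted over 12393 genes. The fit was tested on simulated data with independent noise and planted changes. Those data held no preparation difference between groups, so that test does not bear on preparation. The genes, lists and rules were chosen with earlier results of these data known. In each list, genes were named by a rule on adjusted p (at most 4 that passed, or at least 2 in all); Slc2a4, Hk1, Hif1a, Epas1 and Txnip were added for their roles after values were seen. Alternatives covered scaling, a pseudocount, the arrays fitted, the replicate block, the threshold, the summary of probe sets and each array left out.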

Additional observations from a re-analysis of the deposited data

How the results depend on the processing

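Each result was recomputed under 17 alternatives, and the cause of a change was not tested unless the setting itself gives it. The difference between Notch1 null and wild type was log2 0.74 for Slc2a1 and 1.37 for Slc2a3 after quantile normalization, 0.77 and 1.52 with a pseudocount of 0.1, and 0.94 and 2.08 from the probe set of largest SD alone. It stayed between 0.79 and 0.89 and between 1.63 and 1.69 when arrays were left out. The difference between Dll3 null and wild type was 0.34 and 1.26 from the probe set of largest SD, and ran from 0.18 to 0.33 and from 0.57 to 0.90 with an array left out. Between Dll3 null and Dll3 het, Slc2a1 turned to -0.040 with the median over probe sets; with an array left out the range was -0.053 to 0.10 for Slc2a1 and -0.036 to 0.29 for Slc2a3, both lowest values without Dll3_null replicate 2, and limma adjusted p stayed between 0.816 and 0.999 over all 17. Probe sets called in Notch1 null numbered 969 after quantile normalization, 3308 at an adjusted p under 0.1 and 306 to 2139 with an array left out, against 2139. In Dll3 null against wild type they numbered 0 from those arrays alone, 66 at an adjusted p under 0.1 and 0 to 49 with an array left out, against 20; against Dll3 het they numbered 0 to 17, against 0. The uptake genes called in Notch1 null numbered 2 to 7 with an array left out, against 7.

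Same-numbered arrays did not deviate together (correlations -0.10 to 0.16 over 6 pairs of groups), and the labels give no pairing. With the replicate block, the differences from wild type in Notch1 null were 0.84 for Slc2a1 and 1.66 for Slc2a3 as before, 1874 probe sets passed there, 2 passed in Dll3 null, 6 uptake genes passed and Bsg did not (limma adjusted p = 0.0635).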
